A study of Mus musculus with 8 samples.

Results

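The BCL2 family survival and death genes described here are 10 genes, taken as the lines of the deposited count table whose gene symbol was Bcl2, Bcl2l1, Mcl1, Bax, Bak1, Bcl2l11, Bid, Bad, Bbc3 or Pmaip1. They are 10 of 54532 genes in the table and 10 of the 12911 genes with enough counts to be tested, so that no member was lost to the filter on low counts. RNA had been sequenced from bone marrow-derived macrophages (BMDMs), that is, bone marrow cells turned into macrophages by culture with M-CSF, the macrophage colony-stimulating factor, at 20 ng/ml. The cells had differentiated for 6 days and had received no treatment, and 4 libraries were made from WT and 4 from Gsdmd-/- BMDMs. Gsdmd encodes gasdermin D, the protein whose cleaved N-terminal part forms pores in the plasma membrane during pyroptosis. The methods of the study describe WT female C57BL/6J mice aged 6 to 8 weeks, and Gsdmd-/- mice that were a gift from another laboratory. The substrain and the age of the Gsdmd-/- donors were not stated separately. Whether the libraries of a genotype were made from different mice or cultures is not given, so the p-values measure the spread between these libraries, which may be technical.

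The BCL2 family controls the mitochondrial pathway of apoptosis. BAX and BAK1 are the effectors that, once activated, make the outer mitochondrial membrane permeable and release cytochrome c. BCL2, BCL-XL (the long product of Bcl2l1) and MCL1 hold the effectors and their activators in check, and the BH3-only proteins BIM (Bcl2l11), BID, BAD, PUMA (Bbc3) and NOXA (Pmaip1) are the sensors that block the survival proteins or activate the effectors directly. The BH3 motif is the short helix through which these proteins bind each other. In macrophages, colony-stimulating factor keeps cells alive in part through these proteins, and gasdermin D belongs to a different, lytic route of cell death.

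The bases that encode the BH3 motif are shown for 9 members because they are the feature that joins survival proteins, effectors and BH3-only proteins into 1 family. They were read from the principal transcript of each gene in GENCODE M21 (GRCm38, the assembly also called mm10), 5′ to 3′ on the coding strand, with 5 codons on either side. The codons in capitals are those for a leucine and, after 3 residues of any kind, for a glycine, alanine or serine followed by an aspartate.
Bcl2, chr1:106712569-106712616, minus strand: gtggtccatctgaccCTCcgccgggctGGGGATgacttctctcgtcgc
Bcl2l1, chr2:152829691-152829738, minus strand: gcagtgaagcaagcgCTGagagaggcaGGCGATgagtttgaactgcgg
Mcl1, chr3:95659421-95659468, plus strand: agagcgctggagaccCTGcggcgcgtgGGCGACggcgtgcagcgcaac
Bax, chr7:45465991-45466038, minus strand: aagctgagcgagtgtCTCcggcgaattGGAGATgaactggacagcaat
Bak1, chr17:27022525-27022572, minus strand: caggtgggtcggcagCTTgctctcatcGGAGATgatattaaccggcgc
Bcl2l11, chr2:128147135-128147182, plus strand: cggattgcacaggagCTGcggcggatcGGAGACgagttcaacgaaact
Bid, chr6:120897283-120897330, minus strand: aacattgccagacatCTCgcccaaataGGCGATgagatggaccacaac
Bad, chr19:6950777-6950824, plus strand: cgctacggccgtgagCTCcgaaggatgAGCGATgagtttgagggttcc
Bbc3, chr7:16313758-16313805, plus strand: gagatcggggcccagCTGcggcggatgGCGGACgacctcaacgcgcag

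Each of these 9 proteins held exactly 1 match to that pattern. Its leucine lay at residue 94 of 236 in Bcl2, 90 of 233 in Bcl2l1 and 194 of 331 in Mcl1, at 63 of 192 in Bax and 76 of 209 in Bak1, and at 150 of 196 in Bcl2l11, 90 of 195 in Bid, 151 of 204 in Bad and 141 of 193 in Bbc3. The residue before the aspartate was a glycine in 7 of the 9, a serine in Bad and an alanine in Bbc3. The pattern is short and was present in 7372 of 22527 principal mouse proteins (32.7%), so a match is a description and not by itself a BH3 motif. Pmaip1 is described without a sequence, and its protein of 103 residues held 2 matches to the pattern.

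Libraries held 14935114 to 16794810 counts, and each member had between 149 and 10630 counts in each library. Gsdmd itself had between 63.5 and 95.5 CPM (counts per 1000000 counts of the library, with its size scaled by TMM) in WT and between 14.4 and 18.2 CPM in Gsdmd-/-, a log2 fold change of -2.22 (SE 0.139, n = 4 per genotype, adjusted p = 4.7e-05 by edgeR), in the direction of the labels. WT 2 and WT 3 stood apart from the other 6 libraries on the first principal component, which held 43.6% of the variance of log2 CPM. Their scores were 45.4 and 38.8, against -25.9 to -7.19 in the others, and the Gsdmd-/- libraries lay with WT 1 and WT 4. All 8 macrophage markers listed were tested. Their summed level was 15340 and 17239 CPM in WT 2 and WT 3 and 19408 to 23464 CPM in the other 6 libraries. Results on the members are therefore given with and without WT 2 and WT 3, and in bulk RNA fewer cells of a type and less RNA per cell cannot be told apart.

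**Figure D1:**
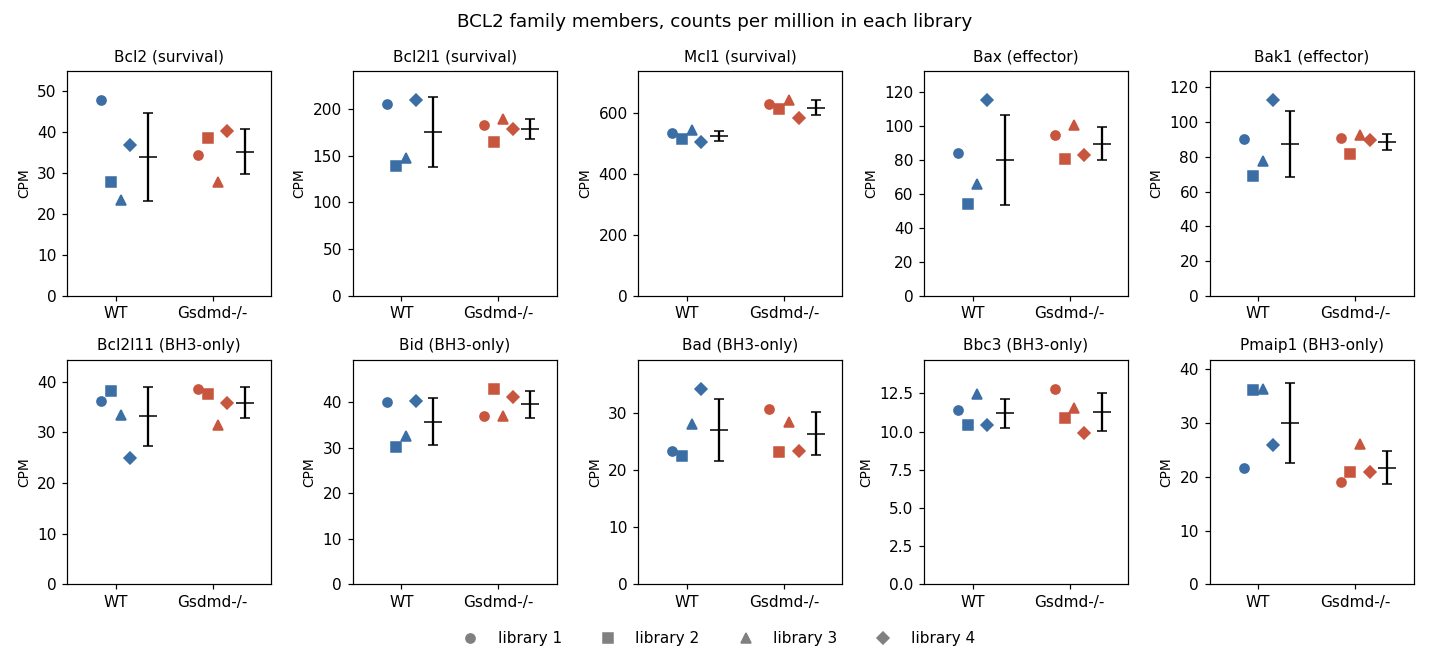
CPM of the 10 members (y axis of each panel, from 0) in WT and Gsdmd-/- BMDMs. Symbols mark the library number, and the bar beside each group is its mean ± SD (n = 4). Only for Mcl1 do the groups not overlap, with Gsdmd-/- libraries at 586 to 644 and WT libraries at 507 to 546 CPM. WT 2 and WT 3 (square and triangle) are the lowest points for Bcl2, Bcl2l1, Bax, Bak1 and Bid and the highest for Pmaip1.

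The main comparison asks whether BMDMs that lack gasdermin D carry different amounts of the transcripts that set the threshold for apoptosis. None of the 10 members differed between the genotypes at an adjusted p under 0.05 (edgeR quasi-likelihood test, two-sided, Benjamini-Hochberg over 12911 genes), where 0.349% of all tested genes did. At the wider cutoff of an unadjusted p under 0.05 with a log2 fold change of 0.5 or more in size, 0 of 10 members passed, against 4.83% of tested genes. At an unadjusted p under 0.05 alone there were 2 members, Mcl1 (higher in Gsdmd-/-) and Pmaip1 (lower), where 12% of tested genes passed. DESeq2 called 1 member, Mcl1, at an adjusted p of 0.0292, and limma voom called 0. The log2 fold changes of the members lay between -0.47 and 0.23 with a median of 0.04, 8 above and 2 below 0, beside a median of -0.01 over all tested genes.

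Among the survival genes, Mcl1 was the member with the least spread and the only one whose genotypes did not overlap. Mcl1 (chr3:95658788-95663176) encodes a short-lived survival protein. It had 534, 516, 546 and 507 CPM in WT 1 to 4 and 630, 613, 644 and 586 CPM in Gsdmd-/- 1 to 4. Every Gsdmd-/- library was above every WT library, which was so for 3.48% of tested genes in this direction. The mean was 526 ± 17.8 CPM in WT and 618 ± 24.8 CPM in Gsdmd-/- (SD, n = 4 each), a fold of 1.18 (95% interval 1.05 to 1.32) or a log2 fold change of 0.23 (SE 0.0743). This did not pass the test over all genes (adjusted p = 0.264 by edgeR). Over the alternatives its adjusted p ran from 0.0292 with DESeq2 to 0.555 when a library was left out. Without WT 2 and WT 3 the log2 fold change was 0.25 (adjusted p = 0.257 by edgeR).

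Bcl2l1 (chr2:152780668-152831728), which gives the survival protein BCL-XL and, by a shorter splice form, a product that promotes death, was counted as 1 gene, so the splice forms were not told apart. It had 206, 139, 148 and 210 CPM in WT 1 to 4 and 183, 165, 189 and 179 CPM in Gsdmd-/- 1 to 4. The Gsdmd-/- values lay inside the WT range, with WT 2 and WT 3 below all of them and WT 1 and WT 4 above all of them. Its log2 fold change was 0.03 (95% interval -0.28 to 0.34). Without WT 2 and WT 3 it was -0.22 (unadjusted p under 0.05, adjusted p = 0.335 by edgeR).

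Bcl2 (chr1:106538178-106714274), the founding survival gene of the family, had 47.8, 27.7, 23.4 and 36.9 CPM in WT 1 to 4. In Gsdmd-/- 1 to 4 it had 34.4, 38.6, 27.8 and 40.3 CPM, all within the WT range. The WT libraries alone spanned the lowest and the highest value of the 8. Between genotypes the log2 fold change was 0.05 with an interval from -0.41 to 0.52, so that any fold from 0.753 to 1.43 was within the error. It was -0.27 without WT 2 and WT 3 (adjusted p = 0.554 by edgeR).

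The effector genes spread widely among the WT libraries and overlapped between the genotypes. Bax (chr7:45461697-45466898) had 84.0, 54.1, 66.0 and 115 CPM in WT 1 to 4 and 94.7, 80.4, 101 and 82.9 CPM in Gsdmd-/- 1 to 4. The WT libraries lay on both sides of all 4 Gsdmd-/- libraries except that WT 1 fell among them, and Bax had the widest spread of any member in WT (coefficient of variation 33.4%, against 10.8% in Gsdmd-/-). Its log2 fold change was 0.17 (95% interval -0.28 to 0.61), and -0.15 without WT 2 and WT 3. Without WT 4 it was 0.40 (unadjusted p = 0.0201 and adjusted p = 0.172 by edgeR). Bak1 (chr17:27019810-27029009) had 90.6, 68.9, 77.5 and 113 CPM in WT 1 to 4 and 90.9, 81.9, 92.5 and 89.7 CPM in Gsdmd-/- 1 to 4. Here too the Gsdmd-/- libraries lay close together, between the lowest and the highest WT libraries. The log2 fold change of Bak1 was 0.02 (95% interval -0.29 to 0.33) and -0.20 without WT 2 and WT 3. The adjusted p of Bax and of Bak1 was 0.787 and 0.967 by edgeR.

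Among the BH3-only genes, Pmaip1 had the largest difference of all members over the 8 libraries, though not without WT 2 and WT 3. Pmaip1 encodes NOXA, which binds MCL1 and is known as a target of p53. It had 21.6, 36.1, 36.3 and 25.9 CPM in WT 1 to 4 and 19.0, 20.9, 26.0 and 20.9 CPM in Gsdmd-/- 1 to 4. WT 2 and WT 3 were above all other libraries, whereas WT 1 and WT 4 lay among the Gsdmd-/- libraries and the genotypes overlapped. The mean was 30.0 ± 7.41 CPM in WT and 21.7 ± 3.02 CPM in Gsdmd-/- (SD, n = 4 each), a fold of 0.723 (95% interval 0.551 to 0.949). The log2 fold change was -0.47 (SE 0.177, adjusted p = 0.336 by edgeR), and -0.13 without WT 2 and WT 3 (adjusted p = 0.788 by edgeR).

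Bcl2l11 (chr2:128126038-128162547) encodes BIM, a BH3-only protein that binds all survival proteins and is held low by growth factor signaling. It had 36.2, 38.1, 33.3 and 25.0 CPM in WT 1 to 4 and 38.6, 37.6, 31.5 and 35.7 CPM in Gsdmd-/- 1 to 4. The genotypes overlapped, and WT 4 was the lowest of the 8. Between genotypes the log2 fold change was 0.11 (SE 0.133), and 0.23 without WT 2 and WT 3.

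Bid (chr6:120891930-120916853), whose protein is cut by caspase-8 into an active form and so links death receptors to mitochondria, had 40.05, 30.1, 32.6 and 40.3 CPM in WT 1 to 4. In Gsdmd-/- 1 to 4 it had 37.0, 43.0, 37.1 and 41.3 CPM, and only WT 2 and WT 3 fell below this range. The log2 fold change was 0.15 (SE 0.115), and -0.02 without these libraries. Bid shares 17.7% of its exon bases with the oppositely oriented Bcl2l13 (4763 counts over the 8 libraries), and the library kit named in the labels does not mark strand, so reads from the shared stretch cannot be told apart.

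Bad (chr19:6941861-6951899), whose protein is held inactive by phosphorylation and 14-3-3 proteins, had 23.2, 22.4, 28.0 and 34.1 CPM in WT 1 to 4. It had 30.6, 23.1, 28.3 and 23.2 CPM in Gsdmd-/- 1 to 4, and the genotypes overlapped, with WT 4 highest. Bad had a log2 fold change of -0.03 (SE 0.154), and -0.13 without WT 2 and WT 3. Bad shares 20.5% of its exon bases with the oppositely oriented Gpr137 (3613 counts over the 8 libraries). Stretches shared with other genes on the opposite strand included 18.2% of the exon bases of Bak1, with Ggnbp1 (162 counts), and 6.09% of those of Bcl2, with D630008O14Rik (4 counts). On the same strand Bax shares 12.2% of its exon bases with Gm45808 (0 counts).

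Bbc3 (chr7:16308393-16318205), which encodes PUMA, a p53 target, had the lowest CPM and, over all 8 libraries, the smallest difference. It had 11.4, 10.4, 12.5 and 10.4 CPM in WT 1 to 4 and 12.8, 10.9, 11.5 and 9.88 CPM in Gsdmd-/- 1 to 4. The genotypes were interleaved over a narrow range. Bbc3 had a log2 fold change of 0.01 (95% interval -0.26 to 0.28), and 0.04 without WT 2 and WT 3. The adjusted p of Bcl2l11, Bid, Bad and Bbc3 was 0.779, 0.665, 0.953 and 0.981 by edgeR.

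**Figure D2:**
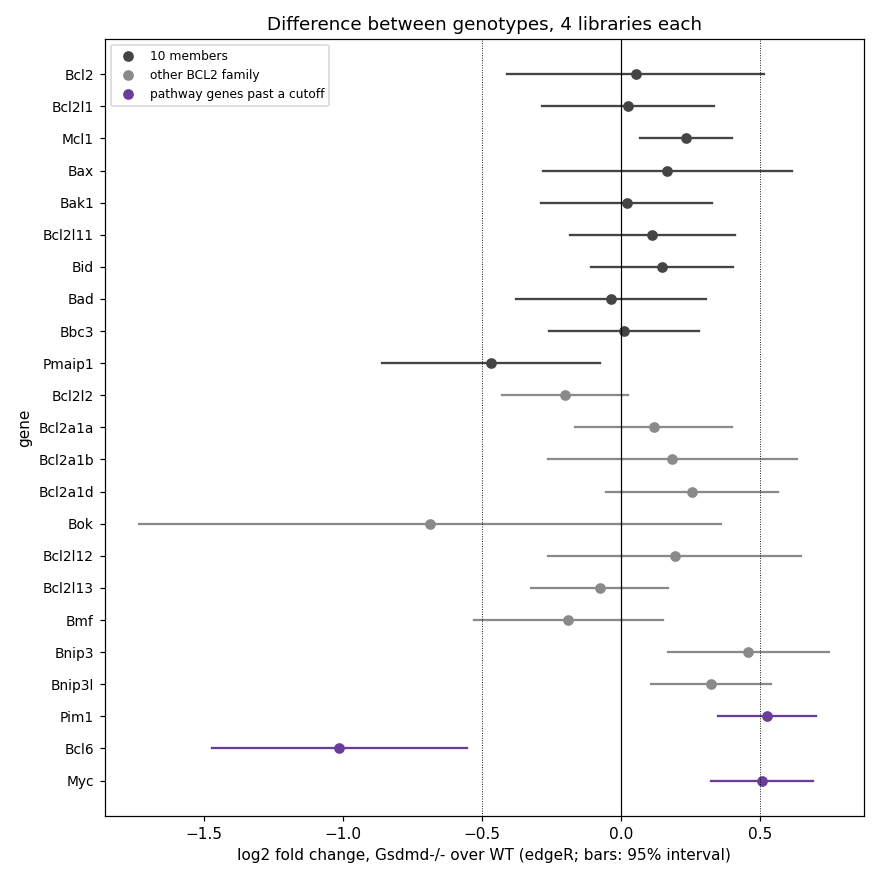
Log2 fold change of Gsdmd-/- over WT (x axis) with its 95% interval for the 10 members, the 10 other BCL2 family genes that were tested, and 3 further pathway genes past a cutoff (edgeR, n = 4 per genotype). Dotted lines mark -0.5 and 0.5. Of the members only the intervals of Mcl1 (0.07 to 0.40) and Pmaip1 (-0.86 to -0.08) lie clear of 0.

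The place of WT 2 and WT 3 among the 8 libraries was read for each member. WT 2 and WT 3 were the lowest pair of the 8 libraries for 5 members (Bcl2, Bcl2l1, Bax, Bak1 and Bid), where this was so for 17.5% of all tested genes. They were the highest pair for 1 member (Pmaip1), against 17.9% of tested genes. The lowest pair was close for Bcl2, with WT 2 at 27.74 CPM and Gsdmd-/- 3 at 27.78 CPM. For the remaining 4 members, Mcl1, Bcl2l11, Bad and Bbc3, the pair was at neither end. On the log2 scale, Bax was 0.61 and 0.33 below its mean over 8 libraries in WT 2 and WT 3 and 0.48 above it in WT 4. Pmaip1 was 0.52 and 0.53 above its mean in WT 2 and WT 3.

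**Figure D3:**
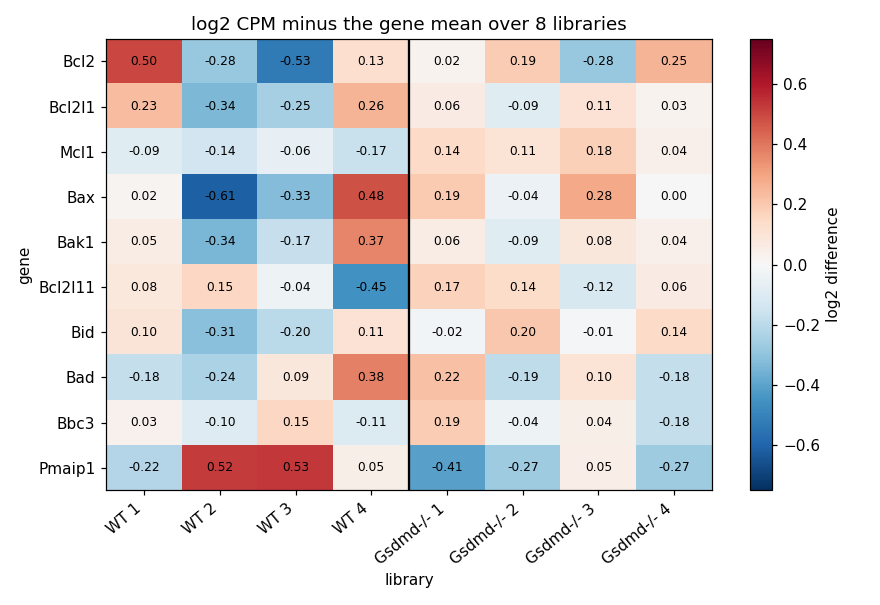
Log2 CPM of each member (rows) in each library (columns) minus the mean of that gene over the 8 libraries, in color and as numbers. The line divides WT from Gsdmd-/-. WT 2 and WT 3 are below the mean for Bcl2, Bcl2l1, Bax, Bak1 and Bid and about 0.52 to 0.53 above it for Pmaip1, while Mcl1 changes sign at the line.

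The direction of those 5 members turned when WT 2 and WT 3 were left out, from above 0 to below 0 in each (to -0.27 for Bcl2, -0.22 for Bcl2l1, -0.15 for Bax, -0.20 for Bak1 and -0.02 for Bid), and none passed an adjusted p of 0.05 in either fit. Leaving out the lowest WT libraries lowers the fold change of such genes by construction, and 55.9% of the 2023 tested genes with the same pair lowest and a value above 0 turned as well, as did 30.6% of all tested genes in either direction. The coefficient of variation of CPM was larger in WT than in Gsdmd-/- for 8 members, as for 71.8% of all tested genes, the exceptions being Mcl1 (3.39% and 4.0%) and Bbc3 (8.69% and 10.8%). Other measures stood apart in the same WT pair. The summed CPM of 6 mast cell and basophil markers, 2 of them tested, was 12.4 and 10.7 in WT 2 and WT 3 and 46.3 to 72.0 in the other 6 libraries. For 8 stromal and endothelial markers, also with 2 tested, it was 29.9 and 28.0 against 49.2 to 81.1 CPM, and none of these markers was at 0 in all libraries. Mitochondrially encoded genes took 2.52% and 2.53% of counts in WT 2 and WT 3 and 1.67% to 2.34% in the others. The part of these differences in the levels of the members was not tested.

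Markers of other cell types were low beside those of macrophages. For 11 neutrophil markers, 3 tested and Ly6g and Retnlg at 0, the sum was 662 to 951 CPM in WT and 554 to 681 CPM in Gsdmd-/-. For 8 dendritic cell markers, 4 tested and Siglech at 0, it was 2228 to 2372 CPM in WT and 1674 to 2099 CPM in Gsdmd-/-, so that this sum, like Mcl1, did not overlap between the genotypes. Its part in the level of Mcl1 was not tested. Of 7 lymphoid markers 0 were tested, with sums of at most 0.609 CPM and Ncr1 at 0. Of 7 erythroid and megakaryocyte markers 2 were tested, with sums of 8.31 to 29.9 CPM in WT and 12.1 to 18.01 CPM in Gsdmd-/- and Hba-a1, Hbb-bs and Gp1bb at 0. At the wider cutoff 1 dendritic cell marker (Clec9a, log2 fold change -0.95) and 1 endothelial marker (Cdh5, -0.51) passed, both lower in Gsdmd-/-, and 0 markers of the other lists did. The other tested marker on the list of Cdh5, Kdr, had a log2 fold change of 0.62 and did not pass. By edgeR 0 markers passed an adjusted p under 0.05. The sum of 10 cell cycle genes was 305 to 421 CPM in WT and 335 to 408 CPM in Gsdmd-/-.

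Levels of different members were compared per exon length, as CPM per kilobase of exon. Mcl1 stood first with a mean of 167 CPM per kilobase over the 8 libraries (148 to 188), which is 3.11 times the mean of Bax. Bax (53.8), Bcl2l1 (38.6) and Bak1 (36.6) followed with overlapping ranges. A second gap lay between Bak1 and Bid, with means that were 3.45-fold apart. Bid (10.6), Bad (10.4) and Pmaip1 (9.46) overlapped each other in turn, as did Bbc3 (5.29), Bcl2l11 (4.30) and Bcl2 (3.78) at the low end, and the ranges of Pmaip1 and Bbc3 did not overlap. Mcl1 was first in every library of both genotypes, whereas the order of Bcl2 and Bcl2l11 differed between libraries. Exon length here is that of all annotated exons (9157 bases for Bcl2 and 8029 for Bcl2l11), not all of which need be used in these cells.

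**Figure D4:**
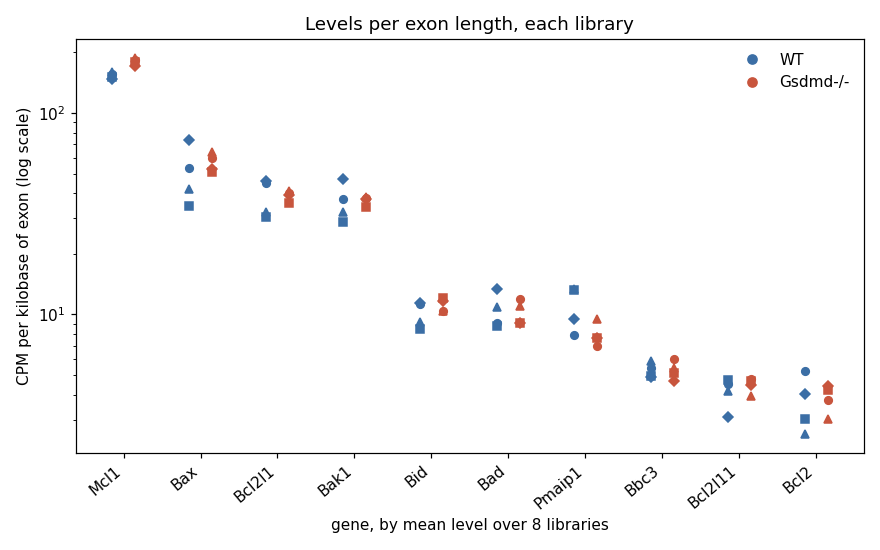
CPM per kilobase of exon (y axis, log scale) of the 10 members in each of the 8 libraries, ordered by their mean, with WT in blue and Gsdmd-/- in red and symbols for library number as in the plot of CPM. Mcl1, at 148 to 188, lies above all libraries of every other member, and Bbc3, Bcl2l11 and Bcl2 lie lowest.

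Ratios within a library compare members that oppose each other, and are given without a test. The count ratio of Bax to Bcl2 was 1.76, 1.95, 2.82 and 3.13 in WT 1 to 4 and 2.76, 2.09, 3.63 and 2.06 in Gsdmd-/- 1 to 4, with a wide overlap. Its mean on the log2 scale was 1.23 ± 0.403 in WT and 1.35 ± 0.387 in Gsdmd-/- (SD, n = 4 each), a difference of 0.13. The count ratio of Mcl1 to Pmaip1, a survival gene and the BH3-only gene whose protein binds it, was 24.7, 14.3, 15.03 and 19.5 in WT 1 to 4. It was 33.2, 29.4, 24.8 and 28.1 in Gsdmd-/- 1 to 4, each above the highest WT library, which at 24.7 was almost level with Gsdmd-/- 3. Its log2 mean was 4.16 ± 0.366 in WT and 4.84 ± 0.175 in Gsdmd-/-, and the lowest values were those of WT 2 and WT 3. The difference of 0.68 was 0.38 without these libraries. This ratio joins the 2 members with an unadjusted p under 0.05, which differ in opposite directions, so it widens their gap by construction. Of the ratios given here only that of Bax to Bcl2 was planned, and how many other pairs of genes separate likewise was not counted. The count ratio of Mcl1 to Bcl2l11 was 13.6 to 20.3 in WT and 16.3 to 20.4 in Gsdmd-/- and overlapped, with a log2 difference of 0.11, or -0.0031 without WT 2 and WT 3.

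Of 16 other BCL2 family genes, 10 were tested, and 0 passed an adjusted p under 0.05 or the wider cutoff by edgeR. Bnip3 and Bnip3l, distant relatives known for marking mitochondria for autophagy, had an unadjusted p under 0.05, as did 12% of all tested genes. Bnip3 had 6.82 to 8.31 CPM in WT and 8.71 to 11.5 CPM in Gsdmd-/-, a log2 fold change of 0.46 (SE 0.130, adjusted p = 0.214 by edgeR). Bnip3l had 167 to 210 CPM in WT and 224 to 243 CPM in Gsdmd-/-, a log2 fold change of 0.33 (SE 0.0972, adjusted p = 0.235 by edgeR). Neither overlapped between genotypes, which was so for 3.48% of tested genes in this direction, and without WT 2 and WT 3 the log2 fold change was 0.54 for Bnip3 (adjusted p = 0.156 by edgeR) and 0.49 for Bnip3l (adjusted p = 0.0334 by edgeR).

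The remaining survival relatives overlapped between the genotypes. Bcl2l2, which encodes BCL-W, had a log2 fold change of -0.20. The values of Bcl2a1a, Bcl2a1b and Bcl2a1d, which encode the survival protein A1, were 0.12, 0.18 and 0.25, and since these copies are nearly identical in sequence, how their reads were divided is uncertain. Bok, an effector relative, had 1.40 to 7.76 CPM in WT and 2.09 to 3.25 CPM in Gsdmd-/-. Its log2 fold change of -0.69 (SE 0.471) became 0.61 without WT 2 and WT 3. Bcl2l12, Bcl2l13 and the BH3-only gene Bmf were at 0.19, -0.08 and -0.19. The 6 genes not tested were Bcl2l10, with 0 counts in every library (which allows up to 3 counts, 0.177 to 0.199 CPM, in each, for counting error only), and Bcl2a1c, Bcl2l14, Bcl2l15, Bik and Hrk, each with at most 9 counts in either genotype.

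Genes that act around the members were counted over 101 listed genes, the 16 above included, of which 91 were tested. Their log2 fold changes had a median of 0.01. At an adjusted p under 0.05, 2 genes rose in Gsdmd-/- and 0 fell, both outside the family, beside 0.349% of all tested genes (18 higher and 27 lower). Pim1, a survival kinase that phosphorylates BAD, had 236, 203, 210 and 218 CPM in WT 1 to 4 and 335, 304, 308 and 302 CPM in Gsdmd-/- 1 to 4. Its log2 fold change was 0.53 (SE 0.0801, adjusted p = 0.0302 by edgeR). Myc, a growth regulator that can also sensitize cells to apoptosis, had 35.8, 38.9, 37.7 and 33.7 CPM in WT 1 to 4 and 51.8, 48.1, 54.7 and 53.3 CPM in Gsdmd-/- 1 to 4. Its log2 fold change was 0.51 (SE 0.0827, adjusted p = 0.0361 by edgeR). Neither gene overlapped between the genotypes. Of the 91 tested genes, 6 had no overlap with higher and 5 with lower values in Gsdmd-/-, beside 3.48% and 4.12% of all tested genes. The adjusted p of Pim1 was above 0.05 without WT 2, WT 3 or any 1 Gsdmd-/- library (0.0808 to 0.153), with log2 fold changes of 0.49 to 0.54, and was 0.0588 without both WT 2 and WT 3 (0.46). That of Myc was above 0.05 without any 1 library except WT 4 (0.0727 to 0.164), with log2 fold changes of 0.49 to 0.54, and was 0.0288 without both WT 2 and WT 3.

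At the wider cutoff Bcl6 was added, a transcriptional repressor with BCL in its name that is not a family member. It had 9.07, 11.98, 9.71 and 6.02 CPM in WT 1 to 4 and 4.56, 5.26, 3.93 and 4.44 CPM in Gsdmd-/- 1 to 4, lower in every Gsdmd-/- library, which was so for 4.12% of tested genes. Its log2 fold change was -1.01 (SE 0.207, adjusted p = 0.0861 by edgeR). The adjusted p was 0.0016 with DESeq2, 0.0285 without the filter on low counts and 0.0141 without WT 4, and 0.0885 to 0.318 in the others of the 16 alternatives. Without WT 2 and WT 3 the log2 fold change was -0.73 (adjusted p = 0.148 by edgeR).

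By group, 0 of 14 tested apoptosome and caspase genes and 0 of 9 inhibitor of apoptosis genes had an unadjusted p under 0.05. Of 12 genes for mitochondrial membrane partners there were 2, both with higher values in Gsdmd-/-, Mff and Mtch2. Of 25 tested genes whose proteins hold or modify the members there were 3, namely Pim1 above 0 and Ywhag and Rps6ka1 below. Of 21 tested regulators and targets of p53 and FOXO there were 4, namely Myc above 0 and Aen, Tnfrsf10b and Bcl6 below. In all 11 of 91 tested genes had an unadjusted p under 0.05, 6 higher and 5 lower in Gsdmd-/-, beside the 12% of all tested genes given above.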

How the data were processed

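Total RNA of 8 BMDM libraries had been turned into TruSeq libraries and sequenced by a company. The authors deposited 1 table of read counts per gene, not normalized, in which all values are whole numbers. The submitters' processing notes name the mm10 build, and the aligner, the counting tool and the annotation are not given in the sources used here. All 8 columns were matched to samples by their labels. Positions, exons and coding bases came from GENCODE M21, which holds 54495 of the 54532 gene identifiers.

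Counts were filtered with filterByExpr, scaled by TMM and tested in edgeR 4.0.16 (R 4.3.3) with its two-sided quasi-likelihood test, with no term but genotype, over all 12911 genes passing the filter. The study names limma in its methods and edgeR for its plot of changed genes, and limma 3.58.1 (voom) and DESeq2 1.42.0 were run as alternatives. Other alternatives were RLE and upper-quartile scaling, dropping the filter, a minimum of 10 counts in each library, leaving out each library, leaving out WT 2 and WT 3, and the replicate number as a block. CPM use the TMM factors. Ratios used counts with 0.5 added on the log2 scale. The tests were checked on simulated data. Depth was 14935114 to 16794810 counts per library. The members, gene lists and alternatives were chosen with earlier results of these data known. All 10 members are named, with the other tested family genes and each pathway gene past a cutoff, and marker lists are given as counts and sums. Clec9a, Cdh5, Kdr, Ywhag, Rps6ka1, Mff, Mtch2, Aen and Tnfrsf10b were named after their values were seen.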

Additional observations from a re-analysis of the deposited data

Results flagged for a closer look

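Of 46 sets of 4 libraries examined for a library far from the others, 1 was picked out. Pim1 had 334.8 CPM in Gsdmd-/- 1, above the other 3 Gsdmd-/- libraries, which had 302.2 to 307.5 CPM. The gap was 0.838 of the whole range, just over the limit of Dixon's test for 4 values, and chance picks out about 1 in 20 such sets. Without Gsdmd-/- 1 the log2 fold change of Pim1 was 0.49 (adjusted p = 0.153 by edgeR).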

How the results depend on the processing

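Of 10 members, 0 passed an adjusted p under 0.05 in every alternative run except DESeq2, which called 1 (Mcl1). At the wider cutoff the number was 0 to 1 when a library was left out, with Pmaip1 called without WT 1, WT 4 or Gsdmd-/- 3, and 0 in the other alternatives. At an unadjusted p under 0.05 alone (edgeR) it was 1 to 3 when a library was left out. Without WT 2 and WT 3 it was 2, then Mcl1 and Bcl2l1 in place of Mcl1 and Pmaip1. For the 91 pathway genes, DESeq2 called 5 at an adjusted p under 0.05 (Pim1, Rps6ka1, Aen, Bcl6 and Myc) and leaving out a library gave 0 to 3, against 2. The number was 3 without the filter on low counts (Pim1, Bcl6 and Myc) and 3 without WT 2 and WT 3 (Bnip3l, Sesn1 and Myc). At the wider cutoff the number was 3, and 2 to 5 when a library was left out (5 without WT 1 and 5 without WT 4), and 5 without WT 2 and WT 3 (Bnip3, Birc5, Sesn1, Bcl6 and Myc), and 4 without the filter, which added Trim17. The cause of these changes was not tested.

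Leaving out WT 2 and WT 3 turned the log2 fold change of Bcl2 to -0.27, Bcl2l1 to -0.22, Bax to -0.15, Bak1 to -0.20, Bid to -0.024 and Bok to 0.61. When 1 library was left out, the range was -0.089 to 0.27 for Bcl2, -0.076 to 0.13 for Bcl2l1, -0.081 to 0.17 for Bak1, -0.12 to 0.10 for Bad and -0.053 to 0.068 for Bbc3. It kept its sign for Mcl1 (0.22 to 0.26), Pmaip1 (-0.60 to -0.36), Bax (0.017 to 0.40, highest without WT 4), Bcl2l11 (0.0025 to 0.18) and Bid (0.068 to 0.21), and the difference in log2 ratio of Bax to Bcl2 ran from -0.04 to 0.26. For the ratio of Mcl1 to Pmaip1 it was 0.38 without WT 2 and WT 3, an alternative chosen after seeing the data, as was that for Mcl1 to Bcl2l11.

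The genotypes share replicate numbers 1 to 4. Libraries of the same number showed little common deviation (correlations of their deviations from the group means 0.03, 0.18, 0.04 and -0.20). Whether the number marks a shared day or batch is not given, and these few correlations cannot settle it. With the replicate number as a block, 0 pathway genes passed an adjusted p under 0.05, with Pim1 at 0.0835 and Myc at 0.149 by edgeR and log2 fold changes of 0.53 and 0.51 as without it, and 0 members did.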
